A study of Homo sapiens with 12 samples.

Results

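The 39 genes described here were the integrin alpha and beta chains, the laminin chains and the nidogens, taken from the gene count matrix by their symbols. All 39 symbols were found among the 45478 genes of the matrix: 18 integrin alpha chains, 8 integrin beta chains, 5 laminin alpha chains, 4 laminin beta chains, 2 laminin gamma chains and 2 nidogens. Of these, 37 passed the filter on low counts that left 19929 genes for testing, and ITGA8 and ITGAL did not. The study sequenced polyadenylated RNA from 2 human clear cell renal cell carcinoma (ccRCC) lines, A498 and 786-O, and from a sunitinib-resistant derivative of each. Sunitinib is a small-molecule inhibitor of receptor tyrosine kinases used against advanced ccRCC. The derivatives, labelled sunitinib-resistant and called resistant A498 and resistant 786-O here, were obtained by growing each parental line in rising sunitinib until it reached confluence at 2 µM (A498) or 4 µM (786-O), over 4 months or more than 20 passages, and A498 and 786-O alone stand for the parental lines. Each of the 4 groups had 3 libraries, all labelled as untreated when collected, and the sources used here do not say whether the 3 came from separate cultures, so p-values measure only the spread between these libraries. Each derivative was 1 selected population, and no batch label was shared by 2 groups, so batch and group cannot be told apart.

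Integrins are cell-surface receptors made of 1 alpha and 1 beta chain that bind the extracellular matrix outside the cell and the actin cytoskeleton inside it. Laminins are cross-shaped trimers of 1 alpha, 1 beta and 1 gamma chain that form a sheet in the basement membrane, the thin matrix under epithelia. Nidogens (entactins) bind the laminin gamma1 chain and type IV collagen, and so tie the laminin and collagen networks together. In the kidney, laminin networks line the tubules from which ccRCC arises, and integrins with a beta1 chain anchor tubule cells to them.

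The libraries labelled resistant A498 resembled 786-O more than A498, which bears on every comparison below. The median correlation of log2(CPM + 1) over the 19929 genes was 0.918 between resistant A498 and A498 libraries, 0.967 between resistant A498 and 786-O libraries and 0.989 between resistant A498 and resistant 786-O libraries (CPM is the count of a gene scaled to the normalized total of its library). The 62 genes with at least 10 CPM in A498 and at most 3 counts in every 786-O library stood in resistant A498 at a median of 0.362% of their A498 level. The 33 genes with the opposite pattern stood in resistant A498 at a median of 94.6% of their 786-O level. For that reason the main values for resistant A498 are given against A498, its labelled parent, and against 786-O. Library totals ran from 20042519 to 47972092 counts. Of the markers of other cells, PTPRC, CD2 and the CD3 chains of leukocytes were at or below 3 counts in all 12 libraries, and the 14 leukocyte markers summed to between 1.38 and 7.58 CPM. The 9 markers of endothelium and platelets summed to between 0.473 and 3.42 CPM. The 5 fibroblast markers summed to 0.418 to 0.883 CPM in A498 and to 16.2 to 19.1 CPM in resistant A498. They summed to 4.79 to 5.10 CPM in 786-O and to 7.24 to 8.84 CPM in resistant 786-O. LUM had a mean of 16.2 CPM in resistant A498, 4.45 in 786-O and 7.42 in resistant 786-O. DCN, PDGFRA and FAP were at or below 3 counts in every resistant A498 library. The 10 markers of ccRCC and tubule cells summed to between 4598 and 9285 CPM. CA9, a marker of ccRCC, was at or below 3 counts in every library of resistant A498, 786-O and resistant 786-O. In bulk RNA, fewer cells of a kind and less RNA per cell cannot be told apart, and the part of these markers in the results was not tested.

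Each gene was tested by the quasi-likelihood F test of edgeR, with p-values adjusted by the method of Benjamini and Hochberg over all 19929 genes, and "called", "rose" and "fell" mean an adjusted p under 0.05; every adjusted p below is from that test. Fold changes are log2 differences of the fitted group means, with standard errors (SE). In resistant A498 against A498, 33 of the 37 tested members were called, 7 higher and 26 lower, where 72.7% of all genes were called, 36.3% higher and 36.4% lower. Their median log2 fold change was -1.01, and that of all genes was -0.00. In resistant 786-O against 786-O, 27 of 37 were called, 18 higher and 9 lower, against 68.5% of all genes (35% higher and 33.5% lower), with a median of 0.32 beside 0.03 for all genes. In 786-O against A498, 28 were called, 3 higher and 25 lower, against 74.2% of all genes (38.2% higher and 36.1% lower). In resistant A498 against 786-O, 26 were called, 16 higher and 10 lower, against 63.6% of all genes (31.6% higher and 32.1% lower). The comparisons of resistant A498 and of 786-O with A498 share the A498 libraries, and those of resistant A498 and of resistant 786-O with 786-O share the 786-O libraries. With a trend of each library on the GC content and length of genes removed, the split was 14 higher and 10 lower in resistant 786-O against 786-O, 9 higher and 18 lower in 786-O against A498, and 14 higher and 14 lower in resistant A498 against 786-O. That correction also moved the median over all genes, to 0.04 in resistant A498 against A498 and -0.12 in resistant 786-O against 786-O. It became 0.20 in 786-O against A498 and -0.12 in resistant A498 against 786-O. A turned sign is therefore to be read beside these medians, not beside 0 alone. Members whose direction turned under that correction are named where they are described.

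**Figure D1:**
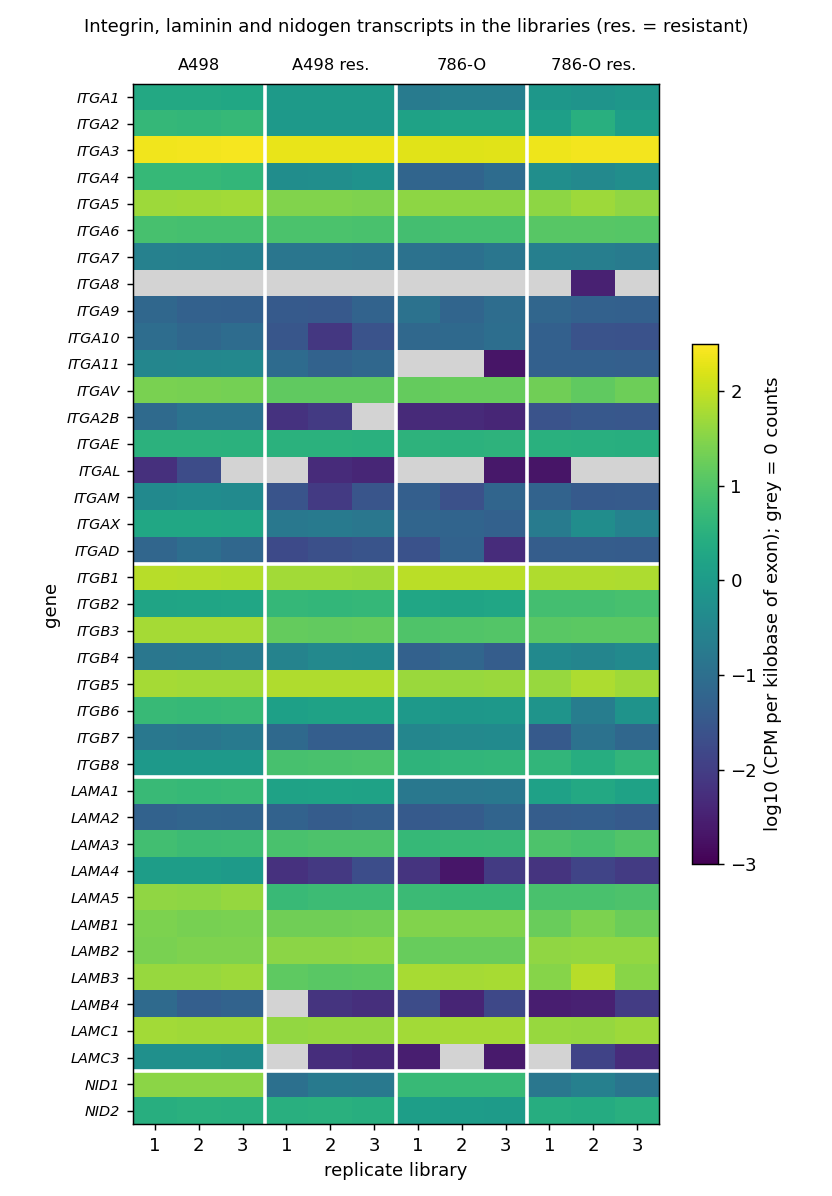
Level of the 39 genes in each of the 12 libraries, as log10 of CPM per kilobase of exon, with 3 libraries per group in columns and grey where a library had 0 counts. ITGA3, ITGB1, ITGB5, LAMB3 and LAMC1 had the highest mean levels over the 4 groups, and NID1 was high in A498, intermediate in 786-O and low in both resistant groups.

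NID1, which encodes nidogen 1 (chr1:235975830-236065109, minus strand, GRCh38), was low in both resistant groups. NID1 stood at 207, 201 and 204 CPM in A498, 0.634, 1.05 and 0.978 CPM in resistant A498, 28.9, 30.1 and 28.8 CPM in 786-O and 0.878, 1.47 and 0.787 CPM in resistant 786-O. No library of a resistant group came near a parental library. NID1 fell in resistant A498 against A498 (log2 fold change -7.86, SE 0.14, adjusted p = 7.3e-16), to 0.435% of the parental level. Against 786-O, NID1 in resistant A498 was also lower, at -5.06 (SE 0.15). In resistant 786-O against 786-O, NID1 fell (log2 fold change -4.82, SE 0.13, adjusted p = 2.5e-13), to 3.56% of the parental level. The parental lines differed too, with 786-O at -2.80 (SE 0.09, adjusted p = 3.1e-13) against A498. The 2 resistant groups overlapped, with means of 0.888 ± 0.224 CPM for resistant A498 and 1.04 ± 0.368 CPM for resistant 786-O (SD, n = 3).

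NID2, the second nidogen (chr14:52004809-52069059, minus strand), did not follow NID1. NID2 stood at 17.2, 19.1 and 18.1 CPM in A498, 18.4, 19.6 and 17.6 CPM in resistant A498, 7.63, 6.75 and 6.61 CPM in 786-O and 16.6, 15.4 and 18.1 CPM in resistant 786-O. The 786-O libraries were below all 9 others, which overlapped. NID2 rose in resistant 786-O against 786-O (log2 fold change 1.26, SE 0.08, adjusted p = 5.5e-09) and was not called in resistant A498 against A498, at 0.03 (SE 0.08, adjusted p = 0.75). In resistant A498 against 786-O, NID2 was higher, at 1.40 (SE 0.09). Per kilobase of exon, NID1 made up 92.3% ± 0.452 (SD, n = 3) of the summed nidogen level in A498 and 81.7% ± 1.34 in 786-O, but 4.87% ± 1.14 in resistant A498 and 6.35% ± 2.55 in resistant 786-O. That sum itself was 38.0 ± 0.321 CPM per kilobase in A498, 6.17 ± 0.128 in 786-O, 3.13 ± 0.174 in resistant A498 and 2.87 ± 0.169 in resistant 786-O, so the higher NID2 level in resistant 786-O than in 786-O did not bring the sum up to the 786-O level.

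The 250 bases before the RefSeq start of both nidogens, and of LAMA4, a laminin chain with 291 to 469 counts in A498 and 7 or fewer in every other library, are shown because NID1 and LAMA4 had the largest falls in resistant A498 among members with at least 5 CPM, and NID2 is the nidogen that did not fall. They come from the RefSeq promoter table (GRCh38.p14), are written 5′ to 3′ on the strand of the gene, and have each CG dinucleotide in capitals. The stretches are chr1:236065091-236065340 for NID1, chr14:52069060-52069309 for NID2 and chr6:112254568-112254817 for LAMA4, all on the minus strand.
NID1: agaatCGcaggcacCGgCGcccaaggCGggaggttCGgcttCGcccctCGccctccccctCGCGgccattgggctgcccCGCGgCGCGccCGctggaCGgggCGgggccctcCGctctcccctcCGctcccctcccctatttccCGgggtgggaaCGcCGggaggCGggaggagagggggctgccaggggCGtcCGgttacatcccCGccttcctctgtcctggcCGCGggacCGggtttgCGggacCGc
NID2: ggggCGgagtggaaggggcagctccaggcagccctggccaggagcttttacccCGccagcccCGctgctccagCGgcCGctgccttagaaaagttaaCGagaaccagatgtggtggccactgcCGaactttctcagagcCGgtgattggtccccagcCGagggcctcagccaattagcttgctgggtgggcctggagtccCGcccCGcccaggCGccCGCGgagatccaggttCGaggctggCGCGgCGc
LAMA4: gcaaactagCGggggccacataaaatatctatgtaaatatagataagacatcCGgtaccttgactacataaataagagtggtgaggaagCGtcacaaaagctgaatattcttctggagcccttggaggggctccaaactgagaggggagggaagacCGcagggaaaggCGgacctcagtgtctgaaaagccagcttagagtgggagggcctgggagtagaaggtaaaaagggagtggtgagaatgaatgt
NID1 had 30 CG dinucleotides and 76.4% GC in this window, NID2 had 18 and 68.0%, and LAMA4 had 5 and 48.4%. Over all 27305 promoters of the table the median was 11 CG dinucleotides, and over the 28 members that matched the table it was 12. The GC box, GGGCGG on either strand, occurred 1 time in the NID1 window, 3 times in NID2 and not in LAMA4, and 42.3% of all promoters and 15 of the 28 members held it. The letters ACGTG of the hypoxia response element, on either strand, were in none of these 3 windows, and in 18.7% of all promoters and 2 of the 28 members. No methylation or binding was measured in these samples, and a match or its lack is a description of these letters only.

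Laminin alpha chains decide which receptors a laminin trimer binds, and their mixture differed between the groups. LAMA5, the main laminin alpha chain of mature kidney basement membranes (chr20:62307955-62367312, minus strand), stood at 544, 528 and 602 CPM in A498, 74.9, 86.2 and 83.3 CPM in resistant A498, 79.1, 73.6 and 71.8 CPM in 786-O and 120.1, 119 and 132 CPM in resistant 786-O. The A498 libraries were far above the other 9. LAMA5 fell in resistant A498 against A498 (log2 fold change -2.78, SE 0.07, adjusted p = 3.9e-14), while resistant A498 and 786-O libraries overlapped and were not called apart, at 0.12 (SE 0.07, adjusted p = 0.13). In resistant 786-O against 786-O, LAMA5 rose (log2 fold change 0.72, SE 0.07, adjusted p = 1.6e-07). LAMA5 is a GC-rich transcript (65.3% GC), and with the GC and length trend removed the change in resistant 786-O turned to -0.077 and was not called, and the value of resistant A498 against 786-O turned to -0.42 and was called lower (adjusted p = 4.4e-06). Another 4 alternatives called resistant A498 above 786-O, at 0.16 to 0.27, 1 of them without replicate 1 of resistant A498.

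LAMA1, an alpha chain best known from embryonic basement membranes (chr18:6941742-7117797, minus strand), moved in opposite directions in the 2 comparisons. LAMA1 stood at 84.1, 75.4 and 79.1 CPM in A498, 23.2, 24.5 and 23.9 CPM in resistant A498, 2.52, 2.41 and 2.53 CPM in 786-O and 22.2, 32.6 and 23 CPM in resistant 786-O. LAMA1 fell in resistant A498 against A498 (log2 fold change -1.74, SE 0.11, adjusted p = 1.8e-09) and rose in resistant 786-O against 786-O (log2 fold change 3.38, SE 0.14, adjusted p = 3.1e-11). The 2 resistant groups overlapped, and resistant A498 had a log2 fold change of 3.26 (SE 0.14) against 786-O. LAMA4, an alpha chain of vessels and mesenchyme (chr6:112107931-112254939, minus strand), stood at 13.6, 13.5 and 12.1 CPM in A498, 0.0746, 0.0957 and 0.235 CPM in resistant A498, 0.0789, 0.0259 and 0.111 CPM in 786-O and 0.0817, 0.16 and 0.109 CPM in resistant 786-O. Each of the last 9 values came from 7 counts or fewer, so differences among those 3 groups were not detectable at this depth. LAMA4 fell in resistant A498 against A498 (log2 fold change -6.55, SE 0.24, adjusted p = 3.2e-12), and 786-O was lower than A498 by a like amount, at -7.40 (SE 0.24).

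LAMA3, the alpha chain of the laminin that anchors stratified epithelia, was the laminin alpha chain that rose in both comparisons: its means were 91.9 ± 5.33 CPM in A498, 129.5 ± 6.47 in resistant A498, 73.7 ± 3.02 in 786-O and 134 ± 17.9 in resistant 786-O (SD, n = 3). The log2 fold change was 0.49 (SE 0.08, adjusted p = 5.6e-05) in resistant A498 and 0.86 (SE 0.08, adjusted p = 2.1e-07) in resistant 786-O, and resistant A498 had a log2 fold change of 0.81 (SE 0.08) against 786-O. LAMA2, the alpha chain of muscle and nerve laminins, was low, with group means between 1.07 and 1.55 CPM, and was called in neither comparison, at -0.29 and -0.18, although with the GC and length trend removed it was called lower in resistant A498, at -0.56. Per kilobase, LAMA5 was 75.7% ± 1.57 (SD, n = 3) of the summed laminin alpha level in A498, 35.2% ± 0.924 in resistant A498, 49.7% ± 2.29 in 786-O and 44.2% ± 0.918 in resistant 786-O. LAMA3 was 12.3% ± 0.805 of it in A498 and 47.1% to 55.2% in the other groups. A498 had mostly LAMA5 in this pool, and the other 3 groups had both LAMA3 and LAMA5 in large shares.

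Among the beta chains, LAMB2, a chain required in the filtering membrane of the glomerulus (chr3:49121114-49133118, minus strand), was higher in both resistant groups. LAMB2 stood at 172, 189.5 and 187 CPM in A498, 239, 245 and 248 CPM in resistant A498, 114, 121 and 118 CPM in 786-O and 259, 276 and 276 CPM in resistant 786-O. In neither comparison did resistant and parental libraries overlap. LAMB2 rose in resistant A498 against A498 (log2 fold change 0.42, SE 0.05, adjusted p = 1.5e-06) and in resistant 786-O against 786-O (log2 fold change 1.20, SE 0.05, adjusted p = 2.4e-11), and resistant A498 had a log2 fold change of 1.05 (SE 0.05) against 786-O. LAMB3, the beta chain that joins LAMA3 in the epithelial laminin (chr1:209614870-209652425, minus strand), stood at 209.6, 209 and 225 CPM in A498, 63.9, 56.8 and 59.7 CPM in resistant A498, 278, 267 and 277 CPM in 786-O and 145, 372 and 158 CPM in resistant 786-O. LAMB3 fell in resistant A498 against A498 (log2 fold change -1.83, SE 0.26, adjusted p = 1.1e-05) and had a log2 fold change of -2.19 (SE 0.26) against 786-O. In resistant 786-O against 786-O, LAMB3 was not called with all libraries, at -0.29 (SE 0.24, adjusted p = 0.3), and replicate 2 stood above and replicates 1 and 3 below every 786-O library. Without that replicate LAMB3 was called lower in resistant 786-O, at -0.86, and with the GC and length trend removed it was called lower as well, at -0.69.

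LAMB1 and LAMC1, the beta and gamma chains shared by most laminin trimers, were lower in both resistant groups by small amounts. LAMC1 (chr1:183023420-183145592, plus strand) stood at 459, 439 and 448 CPM in A498, 349, 358 and 354 CPM in resistant A498, 454, 486 and 488 CPM in 786-O and 385, 366 and 414 CPM in resistant 786-O. LAMC1 fell in resistant A498 against A498 (log2 fold change -0.34, SE 0.05, adjusted p = 1.4e-05) and in resistant 786-O against 786-O (log2 fold change -0.29, SE 0.05, adjusted p = 8.2e-05), and resistant A498 had a log2 fold change of -0.43 (SE 0.05) against 786-O. LAMB1 had means of 461 ± 13.3, 386 ± 5.53, 536 ± 4.81 and 383 ± 79.5 CPM (SD, n = 3) in A498, resistant A498, 786-O and resistant 786-O, with changes of -0.26 (SE 0.10, adjusted p = 0.027) and -0.49 (SE 0.10, adjusted p = 0.00038). The LAMB1 call in resistant A498 was lost under 6 alternatives, among them each set of libraries without 1 of the resistant A498 replicates. LAMC3, the gamma chain of a minor laminin, was counted only in A498 at more than 3 counts in every library, at 5.15, 5.11 and 4.41 CPM, and stood at least 39.4-fold lower in resistant A498 (floor of 3 counts per library). LAMB4 was under 1 CPM in all libraries and at least 3.43-fold lower in resistant A498 than in A498.

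The chains a group expressed were set against the 13 laminin trimers that the members can form, counting a trimer as possible where each of its chains reached 1 CPM per kilobase. A498 met this for 8 trimers, resistant A498 and resistant 786-O for 6 each and 786-O for 4. The trimers with LAMA3 or LAMA5, LAMB1 or LAMB2, and LAMC1 were possible in all 4 groups. Those with LAMA1 were possible in A498, resistant A498 and resistant 786-O but not in 786-O, where LAMA1 stood at 0.157 CPM per kilobase, and those with LAMA4 only in A498. With a level of 2 CPM per kilobase the numbers were 6, 4, 4 and 4 in A498, resistant A498, 786-O and resistant 786-O. These counts rest on transcripts and say nothing of assembled protein.

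**Figure D2:**
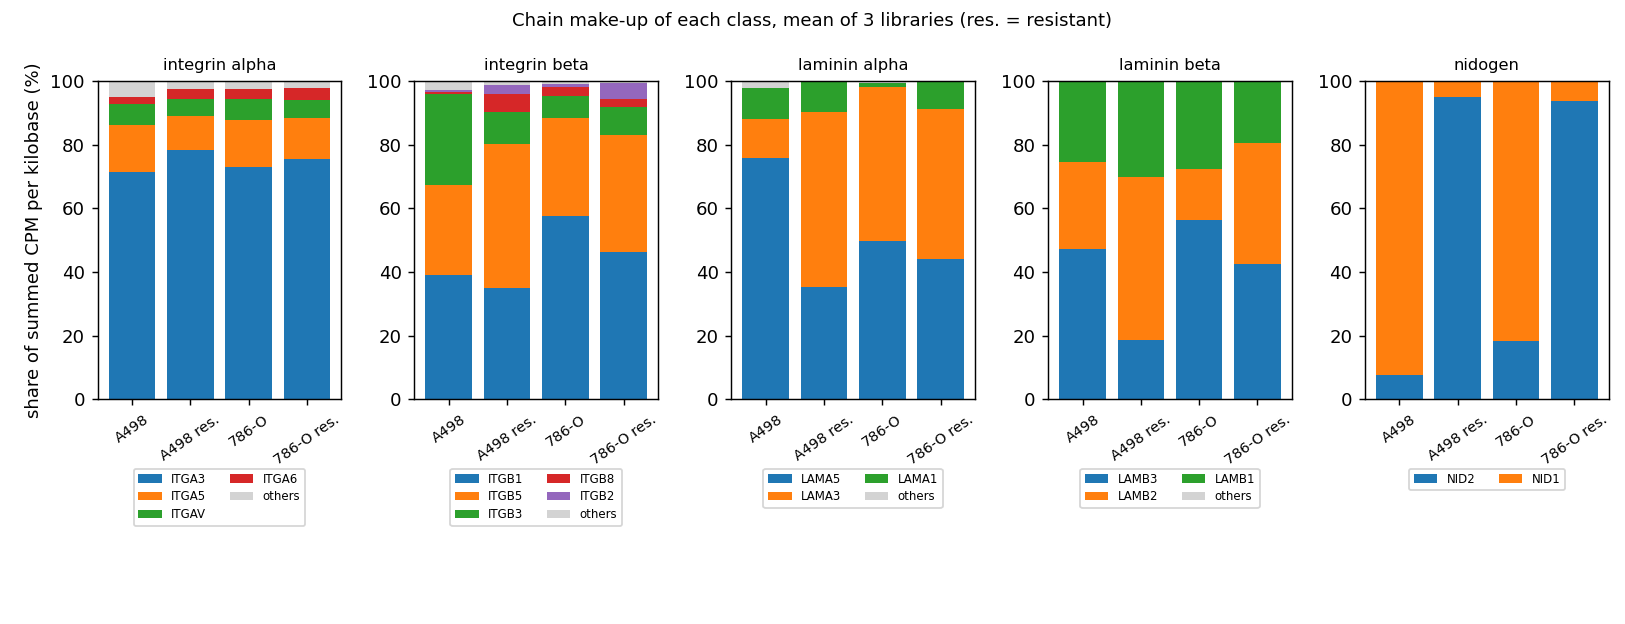
Share of each chain in the summed CPM per kilobase of its class, in percent, as the mean of 3 libraries per group, with chains under 3% in every group pooled in grey. NID1 made up 92.3% and 81.7% of the nidogen level in A498 and 786-O and 4.87% and 6.35% in resistant A498 and resistant 786-O, and LAMA5 made up 75.7% of the laminin alpha level in A498.

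The main integrins that bind laminin, though not the only ones, pair ITGA3, ITGA6 or ITGA7 with ITGB1, or ITGA6 with ITGB4. ITGA3 was the alpha chain with the highest level per kilobase in every group, and made up 71.5% ± 0.600 (SD, n = 3) of the summed integrin alpha level in A498, 78.3% ± 0.371 in resistant A498, 72.9% ± 0.487 in 786-O and 75.5% ± 1.03 in resistant 786-O. ITGA3 (chr17:50055968-50090481, plus strand) stood at 2392, 2527 and 2558 CPM in A498, 2043, 2009 and 2062 CPM in resistant A498, 1771, 1704 and 1725 CPM in 786-O and 2248, 2439 and 2438 CPM in resistant 786-O. ITGA3 was lower in resistant A498 than in A498 (log2 fold change -0.29, SE 0.04, adjusted p = 2.8e-05) and higher in resistant 786-O than in 786-O (log2 fold change 0.45, SE 0.04, adjusted p = 3.3e-07). With the GC and length trend removed these values turned to 0.026 and -0.037, neither of them called, and the values of 786-O against A498 and of resistant A498 against 786-O also changed sign, so no direction is given for ITGA3.

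ITGB1, the beta chain shared by 12 of the 24 integrin pairs considered here (chr10:32887273-33005792, minus strand), was lower in both resistant groups. ITGB1 stood at 1155, 1115 and 1077 CPM in A498, 815, 789 and 774 CPM in resistant A498, 1252, 1258 and 1265 CPM in 786-O and 1010.1, 1003 and 961 CPM in resistant 786-O. Neither comparison had overlapping libraries. ITGB1 fell in resistant A498 against A498 (log2 fold change -0.49, SE 0.04, adjusted p = 4e-08) and in resistant 786-O against 786-O (log2 fold change -0.34, SE 0.04, adjusted p = 3e-06), and resistant A498 had a log2 fold change of -0.67 (SE 0.04) against 786-O. ITGA6 had means of 51 ± 1.51, 58.6 ± 1.39, 49.9 ± 1.97 and 78.6 ± 2.34 CPM in A498, resistant A498, 786-O and resistant 786-O. ITGA6 rose in resistant 786-O (log2 fold change 0.66, SE 0.05, adjusted p = 1.4e-08), and its rise in resistant A498 against A498, 0.20 (SE 0.05, adjusted p = 0.0019), went to -0.00 with the GC and length trend removed. ITGB4, the beta chain of hemidesmosomes, was low, at 1.13 ± 0.134, 2.45 ± 0.412, 0.357 ± 0.0767 and 2.63 ± 0.395 CPM in the same order, and rose in resistant A498 (log2 fold change 1.11, SE 0.20, adjusted p = 0.00015) and in resistant 786-O (log2 fold change 2.88, SE 0.21, adjusted p = 1.7e-08), with resistant A498 at 2.77 (SE 0.23) against 786-O. ITGA7, best known from muscle, was at or below 2.22 CPM on average in every group and was called lower in resistant A498, at -0.81, and higher in resistant 786-O, at 0.81, the second call being lost with the trend removed.

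Collagen is bound by ITGA1, ITGA2, ITGA10 and ITGA11, each paired with ITGB1. ITGA1, a receptor for type IV collagen (chr5:52787916-52959209, plus strand), stood at 38.4, 38.2 and 34.4 CPM in A498, 18.2, 18.7 and 18.4 CPM in resistant A498, 3.6, 4.4 and 4.39 CPM in 786-O and 15.4, 13 and 15.2 CPM in resistant 786-O. The 4 groups did not overlap, and 786-O was the lowest. ITGA1 fell in resistant A498 against A498 (log2 fold change -1.01, SE 0.08, adjusted p = 3.3e-08) and rose in resistant 786-O against 786-O (log2 fold change 1.81, SE 0.09, adjusted p = 3.3e-10), and resistant A498 had a log2 fold change of 2.15 (SE 0.10) against 786-O. ITGA2, a receptor for fibrillar collagen that lies next to ITGA1 (chr5:52989340-53094779, plus strand), stood at 35.5, 34.1 and 37.5 CPM in A498, 7.05, 7.46 and 7.16 CPM in resistant A498, 11.7, 12.8 and 13 CPM in 786-O and 10.0, 23.8 and 9.47 CPM in resistant 786-O. Replicate 2 of resistant 786-O was above the 786-O libraries, and the other replicates were below them. ITGA2 fell in resistant A498 against A498 (log2 fold change -2.31, SE 0.27, adjusted p = 1.7e-06), and was lower there than in 786-O as well, at -0.79 (SE 0.28). In resistant 786-O against 786-O, ITGA2 was not called with all libraries, at 0.20 (SE 0.25, adjusted p = 0.48), and was called lower without replicate 2, at -0.36. ITGA11, a receptor for type I collagen of mesenchymal cells, stood at 3.59, 3.9 and 3.94 CPM in A498, 0.895, 0.574 and 0.743 in resistant A498, 0, 0 and 0.0222 in 786-O and 0.531, 0.527 and 0.503 in resistant 786-O. ITGA11 fell in resistant A498 against A498 (log2 fold change -2.34, SE 0.20, adjusted p = 3.9e-08), and was at least 7.00-fold higher in resistant 786-O, and at least 9.92-fold higher in resistant A498, than in 786-O. ITGA10, a receptor of cartilage, was under 1 CPM in every library and lower in both resistant groups, at -1.92 (SE 0.44) and -1.29 (SE 0.33).

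The integrins that recognise the RGD sequence of fibronectin, vitronectin and latent TGF-beta pair ITGAV with ITGB1, ITGB3, ITGB5, ITGB6 or ITGB8, ITGA5 or ITGA8 with ITGB1, and ITGA2B with ITGB3. ITGB3, ITGB6 and ITGB8 each changed more in resistant A498 against A498 than ITGAV and ITGA5 did. ITGB3 (chr17:47253827-47313743, plus strand), the beta3 chain of the vitronectin receptor, stood at 384, 386 and 387 CPM in A498, 109, 104 and 109 CPM in resistant A498, 66.8, 69.2 and 72.6 CPM in 786-O and 82.8, 89 and 87.9 CPM in resistant 786-O. The A498 libraries were above all others and the 4 groups did not overlap. ITGB3 fell in resistant A498 against A498 (log2 fold change -1.84, SE 0.05, adjusted p = 4.1e-14), rose in resistant 786-O against 786-O (log2 fold change 0.31, SE 0.05, adjusted p = 2.2e-05), and had a log2 fold change of 0.63 (SE 0.05) in resistant A498 against 786-O. Its share of the summed integrin beta level per kilobase was 28.7% ± 0.510 (SD, n = 3) in A498, 10.2% ± 0.139 in resistant A498, 6.79% ± 0.220 in 786-O and 8.62% ± 0.396 in resistant 786-O.

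ITGB8, a chain that pairs with ITGAV and helps release active TGF-beta (chr7:20330702-20415754, plus strand), was the member that rose most in resistant A498 against A498 among those at 5 CPM or more. ITGB8 stood at 13.7, 14 and 14.2 CPM in A498, 121, 129 and 134 CPM in resistant A498, 56.5, 62.2 and 66.8 CPM in 786-O and 63.4, 39.6 and 62 CPM in resistant 786-O. A498 was the lowest group and resistant A498 the highest. ITGB8 rose against A498 (log2 fold change 3.20, SE 0.15, adjusted p = 3.4e-11) and had a log2 fold change of 1.05 (SE 0.13) in resistant A498 against 786-O, and resistant 786-O against 786-O was not called, at -0.17 (SE 0.13, adjusted p = 0.25). ITGB6, the epithelial chain of another activator of TGF-beta (chr2:160099667-160200313, minus strand), was highest in A498 and stood at 29.2, 27.8 and 29.1 CPM in A498, 7.79, 8.66 and 8.49 CPM in resistant A498, 5.1, 4.6 and 4.95 CPM in 786-O and 4.04, 1.26 and 3.85 CPM in resistant 786-O. ITGB6 fell in resistant A498 against A498 (log2 fold change -1.79, SE 0.22, adjusted p = 3.3e-06), while resistant A498 was higher than 786-O, at 0.76 (SE 0.24). The lower level in resistant 786-O than in 786-O, -0.67 (SE 0.25, adjusted p = 0.028), lost its call under 6 alternatives, DESeq2 among them.

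ITGB5, which pairs with ITGAV to bind vitronectin (chr3:124761948-124901418, minus strand), stood at 366, 361 and 363 CPM in A498, 456, 447 and 464 CPM in resistant A498, 303, 296 and 306 CPM in 786-O and 299, 432 and 333 CPM in resistant 786-O. ITGB5 rose in resistant A498 against A498 (log2 fold change 0.33, SE 0.09, adjusted p = 0.0048) and had a log2 fold change of 0.60 (SE 0.09) against 786-O. The value in resistant 786-O, 0.23 (SE 0.09, adjusted p = 0.033), rested on replicate 2, without which it was 0.07 and not called, and with the GC and length trend removed it was -0.034. The alpha chain ITGAV had means of 458 ± 13.8, 278 ± 2.91, 313 ± 6.49 and 353 ± 61.9 CPM in A498, resistant A498, 786-O and resistant 786-O, and ITGA5, of the main fibronectin receptor, had 384 ± 13.1, 209 ± 3.1, 269 ± 2.86 and 307 ± 51.4. Both fell in resistant A498 against A498 (log2 fold change -0.72, SE 0.09) and -0.87 (SE 0.08). In resistant 786-O, ITGAV was not called, at 0.17 (SE 0.09, adjusted p = 0.093). It was called higher under 6 alternatives, at 0.31 without replicate 2 and at 0.28 with the trend removed. The call of ITGA5 in resistant 786-O, 0.19 (SE 0.08, adjusted p = 0.046), was lost under 8 alternatives. The ITGA5 value was 0.048 without replicate 2 and turned to -0.14 with the trend removed, and leaving out any 1 of the 786-O libraries also ended the call. ITGA2B, the platelet chain, was under 1 CPM in every library, at least 4.99-fold lower in resistant A498 than in A498 and at least 2.25-fold higher in resistant 786-O than in 786-O. ITGA8, a chain of kidney mesenchyme, had a single count in 1 of the 12 libraries.

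The alpha4 and alpha9 chains bind VCAM1 and fibronectin, and ITGAE with ITGB7 binds E-cadherin. ITGA4 (chr2:181457202-181538940, plus strand) stood at 52.5, 52.3 and 47.3 CPM in A498, 5.26, 5.65 and 6.81 CPM in resistant A498, 0.658, 0.647 and 0.932 CPM in 786-O and 5.56, 4.24 and 5.62 CPM in resistant 786-O. A498 was the highest group, 786-O the lowest, and the 2 resistant groups overlapped between them. ITGA4 fell in resistant A498 against A498 (log2 fold change -3.10, SE 0.12, adjusted p = 4.9e-12) and rose in resistant 786-O against 786-O (log2 fold change 2.77, SE 0.17, adjusted p = 2e-09), and resistant A498 had a log2 fold change of 2.96 (SE 0.18) against 786-O. ITGA9 stayed under 1 CPM in every library, with -0.43 (not called) in resistant A498 against A498, and its lower level in resistant 786-O, -0.74 (SE 0.27, adjusted p = 0.024), lost its call under several alternatives, DESeq2 among them. ITGAE held means of 22.3, 21.5, 23.2 and 19.8 CPM in the 4 groups, with -0.05 (not called) in resistant A498 and -0.23 (SE 0.06, adjusted p = 0.003) in resistant 786-O. ITGB7 had means of 0.728 ± 0.0793, 0.241 ± 0.082, 1.72 ± 0.24 and 0.332 ± 0.183 CPM and fell in both, in resistant A498 (log2 fold change -1.56, SE 0.41) and -2.39 (SE 0.28) in resistant 786-O.

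Integrins with the beta2 chain are receptors of leukocytes, yet ITGB2 (chr21:44885953-44931989, minus strand) was counted in every library. ITGB2 stood at 12, 12.3 and 13.2 CPM in A498, 34.3, 31.5 and 32.9 CPM in resistant A498, 13, 11.6 and 12.9 CPM in 786-O and 52.9, 52.9 and 57.3 CPM in resistant 786-O. Both resistant groups were above both parental groups, with no overlap. ITGB2 rose in resistant A498 against A498 (log2 fold change 1.40, SE 0.07, adjusted p = 7.1e-11), in resistant 786-O against 786-O (log2 fold change 2.12, SE 0.06, adjusted p = 1.1e-12), and resistant A498 had a log2 fold change of 1.40 (SE 0.07) against 786-O, while the parental lines were not called apart, at 0.00 (SE 0.07, adjusted p = 0.99), although with the GC and length trend removed 786-O was called above A498, at 0.61. The summed leukocyte markers were lower in the resistant groups than in A498 or in 786-O, at 1.38 to 1.53 CPM in resistant A498 and 2.16 to 2.36 CPM in resistant 786-O against 5.70 to 7.58 CPM in A498 and 2.82 to 3.72 CPM in 786-O. Few markers make up this sum: 1 of the 14 had a mean of at least 1 CPM in A498, 2 in 786-O and 0 in each resistant group. Single markers went both ways. Of the 4 tested, 1 was called higher and 2 lower in resistant A498 against A498 (72.7% of all genes were called). In resistant 786-O against 786-O, 2 were called higher and 1 lower (68.5% of all genes). The part of leukocytes in the ITGB2 values was not tested. The tested alpha partners of ITGB2 were lower in resistant A498 than in A498, and ITGAX rose with ITGB2 in resistant 786-O. ITGAX (chr16:31355134-31382999, plus strand) stood at 13.4, 13.3 and 12.8 CPM in A498, 1.12, 1.34 and 1.1 CPM in resistant A498, 0.447, 0.414 and 0.355 CPM in 786-O and 1.35, 3.55 and 1.9 CPM in resistant 786-O, falling in resistant A498 against A498 (log2 fold change -3.48, SE 0.26, adjusted p = 1.3e-08) and rising in resistant 786-O against 786-O (log2 fold change 2.47, SE 0.33, adjusted p = 8.7e-06), with resistant A498 at 1.54 (SE 0.40) against 786-O. ITGAM and ITGAD, its neighbours on chromosome 16, were also highest in A498: ITGAM had a mean of 2.46 ± 0.213 CPM there and between 0.118 and 0.251 CPM in the other groups, and ITGAD was under 1 CPM throughout. ITGAM fell in resistant A498 (log2 fold change -4.28, SE 0.36), ITGAD stood at least 2.69-fold lower there, and neither was called in resistant 786-O against 786-O, at -0.01 (SE 0.36) and 0.63 (SE 0.51). The counts of ITGAD were few, and without replicate 2 of 786-O it was called higher in resistant 786-O, at 1.52. ITGAL, the alpha chain of the lymphocyte integrin LFA-1, had at most 4 counts in any library.

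**Figure D3:**
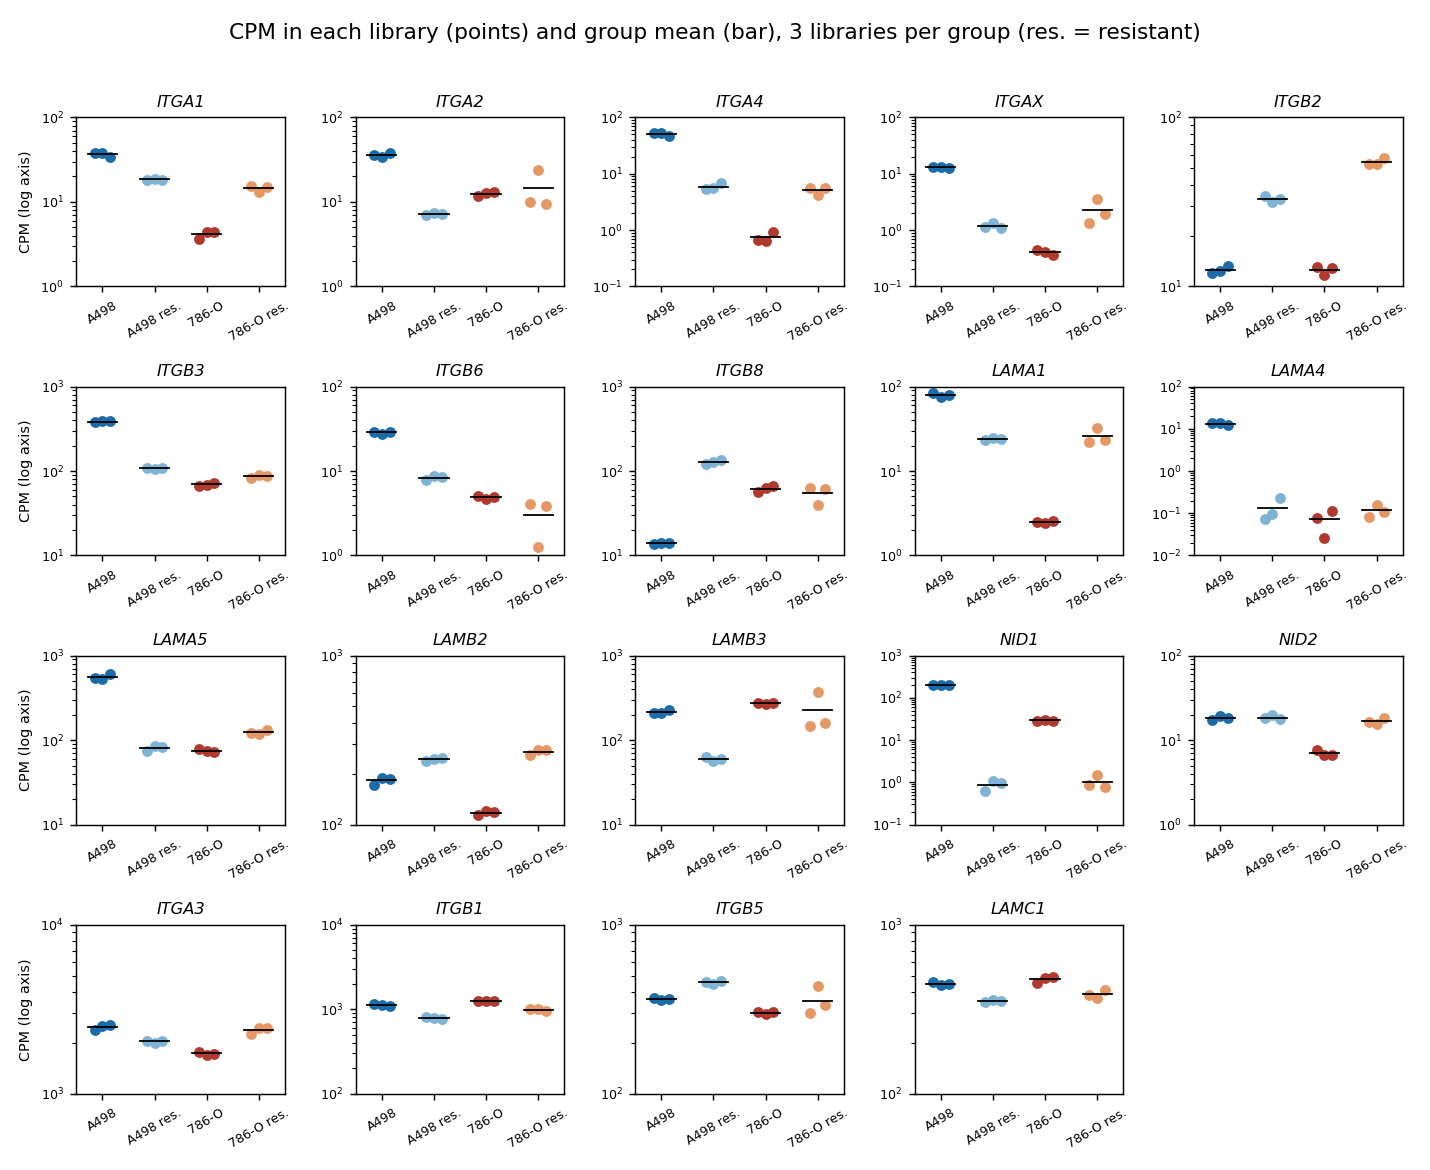
CPM of 19 members in each library (points) and the mean of each group (bar), 3 libraries per group, on log axes that span whole decades and differ between panels. NID1 was low in both resistant groups, ITGB2 was high in both, and ITGA4, ITGA1 and LAMA1 had A498 highest and 786-O lowest.

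Of the 24 known integrin pairs, A498 expressed both chains at 1 CPM per kilobase or more for 11, and resistant A498, 786-O and resistant 786-O for 8 each. ITGB1 with ITGA3, ITGA5, ITGA6 or ITGAV, and ITGAV with ITGB3 or ITGB5, passed in all 4 groups. A498 was the group in which ITGA1 and ITGA4 with ITGB1, and ITGAX with ITGB2, passed at this level. ITGA1 in resistant A498 fell just short of it, at 0.994 CPM per kilobase. ITGA2 with ITGB1 passed in A498, 786-O and resistant 786-O and not in resistant A498, where ITGA2 was at 0.915 CPM per kilobase. ITGAV with ITGB8 passed in resistant A498, 786-O and resistant 786-O, and not in A498, where ITGB8 was at 0.921 CPM per kilobase. ITGAV with ITGB6 passed in A498 and resistant A498. At 0.5 CPM per kilobase the numbers were 12, 11, 9 and 10 in A498, resistant A498, 786-O and resistant 786-O, and at 2 CPM per kilobase they were 9, 7, 7 and 7.

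The 2 resistance comparisons share no library, so their calls could be set side by side. Both called 6 of 37 members higher, and 15.2% of all genes: ITGA6, ITGB2, ITGB4, ITGB5, LAMA3 and LAMB2. Both called 7 lower, and 14.3% of all genes: ITGA10, ITGB1, ITGB6, ITGB7, LAMB1, LAMC1 and NID1. A further 11 were called lower in resistant A498 and higher in resistant 786-O, against 10.6% of all genes, and 0 the other way, against 11.1%. The 11 were ITGA1, ITGA3, ITGA4, ITGA5, ITGA7, ITGA11, ITGA2B, ITGAX, ITGB3, LAMA1 and LAMA5. With the GC and length trend removed, ITGA6 in resistant A498, ITGB5 and ITGA7 in resistant 786-O, LAMA5 in resistant 786-O, ITGA5 in resistant 786-O and ITGA3 in both lost these calls. Another 8 were called lower in resistant A498 alone, ITGB8 was called higher in resistant A498 alone, and NID2 was called higher and ITGA9 and ITGAE lower in resistant 786-O alone. The difference of the 2 changes was itself called for 28 of 37 members, 1 positive (ITGB8) and 27 negative, against 68.3% of all genes (33.9% positive and 34.4% negative). Its median over the members was -1.23, beside -0.02 over all genes, and with the GC and length trend removed the split was 5 positive and 21 negative. That setting moved the median of the difference over all genes to 0.18. The difference was largest for LAMA4, -7.17 (SE 0.68, adjusted p = 2e-07), ITGAX, -5.95 (SE 0.42, adjusted p = 7.4e-09), and ITGA4, -5.87 (SE 0.20, adjusted p = 2.9e-12), among members at 5 CPM or more. LAMA4 had 7 counts or fewer in every 786-O and resistant 786-O library, so a fall there was not detectable. Its change in resistant 786-O was 0.62 (SE 0.52, adjusted p = 0.33), and the difference rests on the fall from A498. For NID1 the difference was -3.04 (SE 0.25, adjusted p = 3.5e-08), with a fall in both comparisons. Its libraries in both resistant groups overlapped, while the parental lines differed, with 786-O at -2.80 (SE 0.09) against A498. Between the parental lines, 786-O was called below A498 for 25 members, with a median of -0.98 over the members, and resistant A498 against 786-O had a median of 0.17. The part of the resemblance of resistant A498 to 786-O in these differences was not tested.

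**Figure D4:**
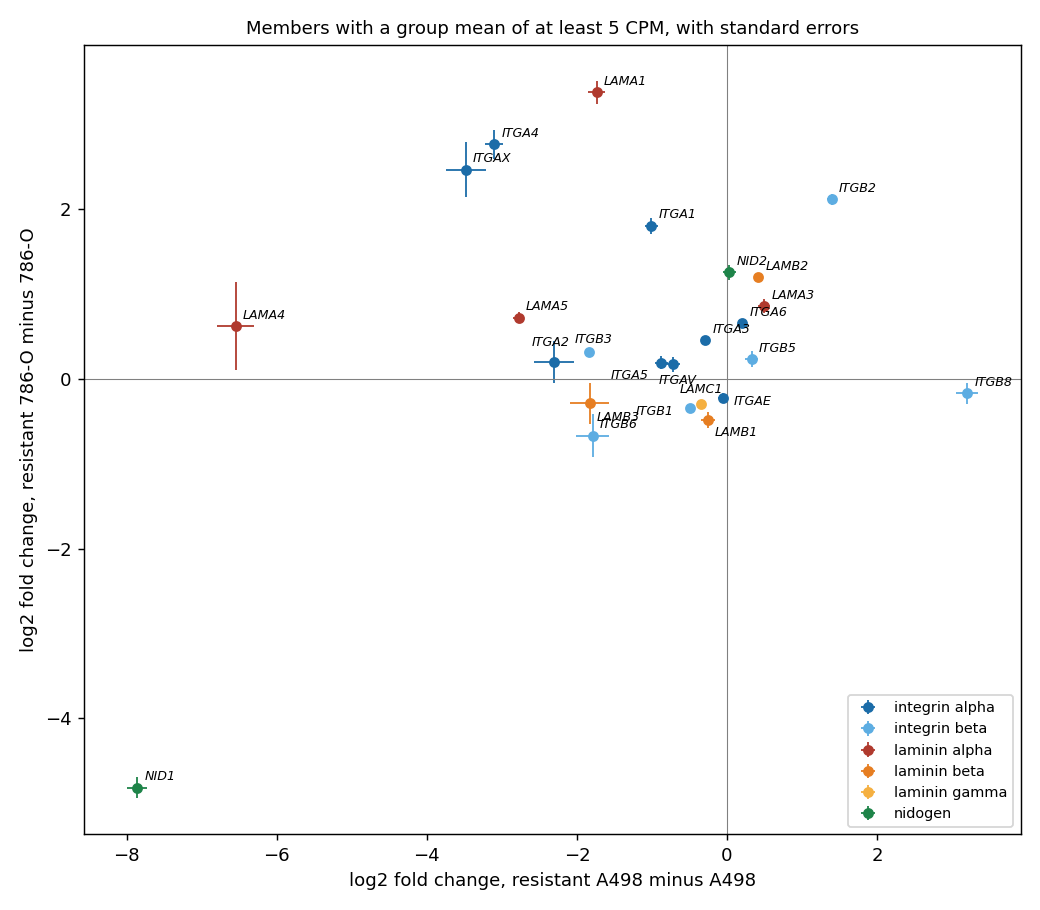
Log2 fold change with its standard error for the 25 members with a group mean of at least 5 CPM, in resistant A498 against A498 (horizontal) and resistant 786-O against 786-O (vertical), coloured by class. NID1 lies far to the lower left at -7.86 and -4.82, ITGB2 to the upper right at 1.40 and 2.12, and LAMA1, ITGA4, ITGAX and ITGA1 lie to the upper left.

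Replicate 2 of resistant 786-O stood apart from the other resistant 786-O libraries. Of the 21 members with at least 5 CPM in resistant 786-O, 3 differed in that library by more than 1.5-fold from the mean of replicates 1 and 3, beside 5.8% of the 11739 genes at this level, while replicates 1 and 3 differed by that much for 0 members and 0.017% of genes. LAMB3 and ITGA2 stood there at 245% of the mean of the other libraries each, and ITGB8 at 63.1%. Without replicate 2, 28 members were called in resistant 786-O against 786-O, 17 higher and 11 lower, instead of 27, with ITGA2 and LAMB3 among the lower.

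**Figure D5:**
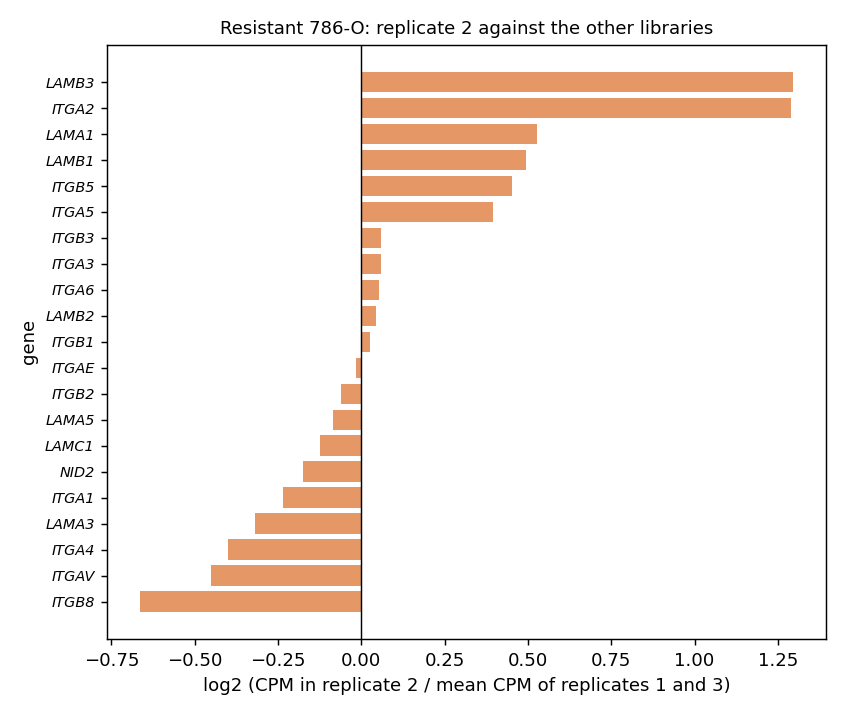
Log2 ratio of CPM in replicate 2 to the mean CPM of replicates 1 and 3 of resistant 786-O, for the 21 members with at least 5 CPM. LAMB3 and ITGA2 stand at 245% of the other libraries and ITGB8 at 63.1%.

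Integrins work through a cytoplasmic adhesion complex (talins, kindlins, vinculin, focal adhesion kinases and tensins), of which 35 genes were listed and 33 tested. Beside the counts of this list and the next 4 stand the shares called of all genes, 72.7% in resistant A498 against A498, 68.5% in resistant 786-O against 786-O and 63.6% in resistant A498 against 786-O. In resistant A498 against A498, 28 of 33 were called (84.8%), 8 higher and 20 lower, in resistant 786-O against 786-O 27 (81.8%), 12 higher and 15 lower, and in resistant A498 against 786-O 26 (78.8%), 8 higher and 18 lower. TLN2, the second talin, rose in resistant A498 to 97.3 ± 2.54 from 11.1 ± 0.808 CPM (log2 fold change 3.12, SE 0.07, adjusted p = 1.2e-14), and was 67.2 ± 2.58 CPM in 786-O, and its rise in resistant 786-O, 0.40 (SE 0.06), lost its call with the GC and length trend removed, at 0.050. PTK2B, a kinase related to focal adhesion kinase, fell in resistant A498 (log2 fold change -3.40, SE 0.17) and rose in resistant 786-O (log2 fold change 1.01, SE 0.18). TNS3, a tensin, likewise fell in resistant A498 to 49.9% of its A498 level (adjusted p = 1.9e-09) and rose in resistant 786-O (log2 fold change 1.13, SE 0.07). Falls in both comparisons were seen for TNS2, at -2.07 (SE 0.07) and -0.59 (SE 0.07), for LPXN (leupaxin), at -2.02 (SE 0.28) and -2.28 (SE 0.26), and for TNS1, at -0.94 (SE 0.14) and -1.70 (SE 0.14), in resistant A498 and resistant 786-O in turn. Of 16 membrane partners such as tetraspanins and syndecans, 12 were called in resistant A498 (75%, 5 higher and 7 lower) and 13 in resistant 786-O (81.2%, 6 higher and 7 lower). Among them SDC2, a syndecan, rose in resistant A498 to 272 ± 4.71 from 5.92 ± 0.106 CPM (log2 fold change 5.52, SE 0.20, adjusted p = 2.5e-12), and was 88.2 ± 1.56 CPM in 786-O, with a rise of 0.56 (SE 0.15) in resistant 786-O. CD82 fell in resistant A498, at -1.83 (SE 0.11), and in resistant 786-O, at -0.54 (SE 0.10). SDC1 fell in resistant A498, at -1.46 (SE 0.04). RAP1B and ITGB1BP1 fell in resistant 786-O, at -0.81 (SE 0.06) and -0.72 (SE 0.04).

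Other basement membrane genes went in both directions. Of 12 listed, 9 were tested. All 9 were called in resistant A498 against A498, beside 72.7% of all genes, 5 higher and 4 lower, 8 in resistant 786-O against 786-O, beside 68.5%, 7 higher and 1 lower, and 9 in resistant A498 against 786-O, beside 63.6%, 7 higher and 2 lower. PXDN, a peroxidase that cross-links type IV collagen, fell in both comparisons: its levels were 1121 ± 18.1 CPM in A498, 1.96 ± 0.329 in resistant A498, 28.8 ± 0.882 in 786-O and 2.77 ± 1.83 in resistant 786-O, with changes of -9.17 (SE 0.27, adjusted p = 1.8e-13) and -3.40 (SE 0.23, adjusted p = 5.6e-09). PXDN was the 1 gene of this list that fell in resistant 786-O, and AGRN, 1 of the 7 that rose there, went to -0.03 with the GC and length trend removed. AGRN (agrin), a heparan sulfate proteoglycan that binds laminin, rose in resistant A498 (log2 fold change 1.28, SE 0.07). HSPG2 (perlecan), a proteoglycan that binds nidogen, rose in resistant A498 (log2 fold change 1.20, SE 0.10) and in resistant 786-O (log2 fold change 1.18, SE 0.10). BCAM, a receptor for LAMA5, fell in resistant A498 (log2 fold change -0.93, SE 0.20) and rose in resistant 786-O (log2 fold change 2.78, SE 0.28).

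Of 23 other matrix ligands of integrins, 19 were tested. In resistant A498, 18 were called (94.7%, beside 72.7% of all genes), 6 higher and 12 lower, and in resistant 786-O 16 (84.2%, beside 68.5%), 12 higher and 4 lower. FN1 (fibronectin), the ligand of ITGA5 with ITGB1, fell in resistant 786-O from 7635 ± 542 to 2339 ± 575 CPM (log2 fold change -1.71, SE 0.12, adjusted p = 1.2e-08), and rose in resistant A498 against A498 (log2 fold change 2.01, SE 0.12, adjusted p = 1.1e-09). TNC, tenascin C, fell in both comparisons, at -3.40 (SE 0.46) in resistant A498 and -2.81 (SE 0.42) in resistant 786-O, and MFGE8, an RGD ligand of ITGAV pairs, rose in both, at 0.30 (SE 0.06) and 1.83 (SE 0.06). FBLN1 (fibulin 1), which binds nidogen and laminin, fell in resistant A498 against A498 (log2 fold change -8.42, SE 0.09) and had a log2 fold change of 1.85 (SE 0.21) against 786-O, and rose in resistant 786-O (log2 fold change 1.30, SE 0.20). THBS2 also fell in resistant A498 against A498, at -5.79 (SE 0.18). POSTN had a mean of 5.80 CPM in A498 and at most 3 counts in every resistant A498 library. Among the 11 cell-surface ligands, 9 were called in resistant A498 (81.8%, 4 higher and 5 lower) and 10 in resistant 786-O (90.9%, 5 higher and 5 lower). VCAM1, the ligand of ITGA4, fell in resistant A498 (log2 fold change -1.11, SE 0.17) and in resistant 786-O (log2 fold change -1.02, SE 0.16), and ICAM1, a ligand of ITGB2 integrins, rose in resistant 786-O (log2 fold change 0.81, SE 0.07) and was not called in resistant A498, at -0.04 (SE 0.07), but was called higher there, at 0.37, with the GC and length trend removed.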

How the data were processed

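RNA of 12 libraries (A498, resistant A498, 786-O and resistant 786-O, 3 each) was sequenced after TruSeq Stranded mRNA preparation. According to the submitters' processing notes and the study's methods, the authors trimmed reads with Trimmomatic 0.36.6, aligned them to GRCh38 with HISAT2 2.1.0 and counted them per gene with featureCounts 1.6.3, and the deposited values are raw counts per gene, not normalized, with no replicates pooled. From these, the counts were tested with edgeR 4.0.16 in R 4.3.3: TMM normalization, filterByExpr, 4 group means over all 12 libraries, the quasi-likelihood F test and Benjamini-Hochberg adjustment over 19929 genes at 0.05. Libraries held 20042519 to 47972092 counts. CPM per kilobase used the union of GENCODE exons (a later release than that counted). The union holds every annotated exon of a gene, whichever transcripts were expressed. It was 15.2 kilobases for ITGB8, 18.5 for ITGA1 and 4.65 for LAMB3. Chain shares, and passes or failures near 1 CPM per kilobase, therefore depend on the annotated length. Levels at or below 3 counts in every library of a group gave bounds, not folds, and cover counting error only. Simulated data with known changes were used to test the fit: 94 of 100 genes changed 2-fold and 54 of 100 changed by 0.5 on the log2 scale were recovered for resistant A498 against A498, and 96 and 68 of 100 for resistant 786-O against 786-O. In each of these runs 6 unchanged genes were called. Only those genes were changed in the simulation, whereas 72.7% and 68.5% of all genes were called in these comparisons. Recovery with so many genes changing was not tested.

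The members, gene lists and comparisons were chosen with earlier results of these data known, the fall of NID1 in both resistant groups among them, and the adhesion lists hold genes of general knowledge. Values in every library are given for members with at least 5 CPM in a group that were called with an absolute log2 fold change of at least 1 in either resistance comparison, and for the 5 members with the highest level per kilobase. Up to 3 genes of each list were picked in each resistance comparison by the size of their change, and not all of these are named. Other members are given as group means, and ITGA11 and LAMC3 by library, a choice made after their values were seen. Replicate numbers did not pair the libraries. Alternatives covered normalization, filters, DESeq2 1.42.0, the test named in the study's methods, a replicate block, a trend on GC content and length, thinning, and leaving out each library. Read-level files were not used here.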

Additional observations from a re-analysis of the deposited data

Results flagged for a closer look

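The change in resistant A498 against A498 differed from the change in resistant 786-O against 786-O, by the edgeR test of the difference itself (log2 change in resistant A498 minus log2 change in resistant 786-O), for 17 of the 19 members with values in every library. The difference was negative for 16 of them. Among integrin alpha chains it was -2.81 for ITGA1, -2.51 for ITGA2, -0.74 for ITGA3, -5.87 for ITGA4 and -5.95 for ITGAX. Among integrin beta chains it was -0.15 for ITGB1, -0.72 for ITGB2, -2.16 for ITGB3 and -1.12 for ITGB6, and ITGB8 alone was positive, at 3.37. Among laminins it was -5.12 for LAMA1, -7.17 for LAMA4, -3.50 for LAMA5, -0.78 for LAMB2 and -1.55 for LAMB3, and among nidogens -3.04 for NID1 and -1.23 for NID2. LAMA4 had 7 counts or fewer in every 786-O and resistant 786-O library, so a fall there was not detectable. NID1 libraries of both resistant groups overlapped, while the parental lines differed, with 786-O at -2.80 (SE 0.09) against A498. The values of ITGA3, ITGB2 and LAMB2 turned positive with the GC and length trend removed, and no longer passed the test. The median over all genes stood at 0.18 under that setting. Of all 19929 genes, 68.3% passed the same test. The resemblance of the resistant A498 libraries to 786-O enters all of these values, and its part was not tested.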

How the results depend on the processing

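Of 103 recomputed counts of called members, 99 stayed within 1.5 times their value. This is a loose measure, since with 37 members tested its upper limit could not be passed. A fall from 33 to 22 in resistant A498 against A498, at a minimum absolute log2 fold change of 1, still lay within it. It also leaves out which members were called and in which direction. The test named in the study's methods, on raw counts at an unadjusted p, called 20 members in resistant A498 against A498 and 17 in resistant 786-O against 786-O, and a minimum of 1 on the absolute log2 fold change left 13 in resistant 786-O against 786-O and 15 in resistant A498 against 786-O. Leaving out 1 library gave 31 to 33 members in resistant A498 against A498, 23 to 28 in resistant 786-O against 786-O, 27 to 31 for the difference, 27 to 29 in 786-O against A498 and 25 to 27 in resistant A498 against 786-O. Signs turned with the GC and length trend removed, without and with the replicate block: ITGA3 to 0.026 and 0.027 in resistant A498 against A498, -0.037 and -0.038 in resistant 786-O against 786-O, 0.063 and 0.065 for the difference, 0.099 and 0.099 in 786-O against A498, and -0.072 and -0.072 in resistant A498 against 786-O. Likewise in resistant 786-O against 786-O LAMA5 went to -0.077 and -0.078 and ITGB5 to -0.034 and -0.043, the difference of ITGB2 to 0.11 and 0.10 and of LAMB2 to 0.013 and 0.014, ITGB5 in 786-O against A498 to 0.12 and 0.12, and LAMA5 in resistant A498 against 786-O to -0.42 and -0.42, the last of them called. The study's test on raw counts, which leaves library size in, turned 786-O against A498 to 0.031 for ITGA3 and 0.28 for ITGB5, and resistant A498 against 786-O to -0.11 for ITGB3, -0.61 for LAMA5, -0.50 for ITGA3 and -0.14 for ITGB5. Without replicate 2 of resistant 786-O, ITGA2 in resistant 786-O against 786-O turned to -0.36, and leaving out any other library kept it at up to 0.45. With the trend removed, the median over all genes was 0.04 in resistant A498 against A498 and -0.12 in resistant 786-O against 786-O. It was 0.18 for the difference, 0.20 in 786-O against A498 and -0.12 in resistant A498 against 786-O. The cause of the turns under the trend was not tested. Deviations of same-numbered libraries correlated at -0.18 to 0.10 between the resistant and parental libraries of a line and at -0.18 to 0.20 over all pairs of groups, where differently numbered libraries had -0.21 to 0.16, so the numbers were not taken to pair the libraries; with the replicate block 33, 27, 28, 29 and 26 members were called in resistant A498 against A498, resistant 786-O against 786-O, the difference, 786-O against A498 and resistant A498 against 786-O. Members under 1 CPM rest on few counts, and differences among groups at or below the floor were not detectable.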
